A study of Mus musculus with 31 samples.

Results

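The 44 cell cycle and mitosis genes followed here were read in the liver of 31 male C57BL6/J mice, with 1 Agilent 1-color array for each mouse. They were listed by name as known regulators or effectors of DNA replication and cell division, and the list was drawn up with earlier results of these data known. The array carried 80 probes for them among 37074 gene names. Of these, 51 probes of 36 genes passed the filter on low signal, which left 36059 probes of 23968 genes in all. The groups were 8 ChREBPβ-deficient mice, in which CRISPR/Cas9 editing had removed exon 1b of Mlxipl, and 8 WT littermates of that line. The other line gave 7 total ChREBP-KO mice, which are Mlxipl-null and lack both the α and the β isoform, and 8 WT littermates of their own. Replicate 3 of the total ChREBP-KO mice was not analysed here. Both deletions were carried by the whole body, not by hepatocytes alone, and the mice came from several litters. Every mouse, WT or mutant, had been fasted for 24 h and then refed for 18 h with 20% glucose in the drinking water, and no age was given in the sources used here.

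ChREBP is a glucose-activated transcription factor that drives glycolytic and lipogenic genes in the refed liver. Hepatocytes of an adult liver rarely divide, so transcripts of mitosis are scarce there unless the organ regenerates. In a dividing cell, D and E cyclins release E2F factors, which switch on genes for origin licensing, the replication fork and deoxynucleotide supply. Cyclins A and B with their kinase then drive entry into mitosis, where spindle and kinetochore proteins separate the chromosomes and the anaphase-promoting complex destroys the cyclins. Many of the mitotic genes carry CCAAT boxes and a cell cycle homology region (CHR) near their start sites, which link them to the MuvB complexes.

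The tissue was liver by its markers. All 7 hepatocyte markers passed the filter, and their summed log2 signal lay between 20.32 and 20.45 on every array. The brightest Mlxipl probe gave log2 intensities of 13.89 to 14.30 in total ChREBP-KO mice and 15.14 to 15.48 in their WT littermates, and 14.40 to 14.84 in ChREBPβ-deficient mice against 14.88 to 15.33. A dimmer Mlxipl probe overlapped, with 10.06 to 10.86 against 10.62 to 11.47 and 10.3 to 10.88 against 10.49 to 11.7 in the same order. Another showed no loss, with 10.79 to 11.1 against 10.9 to 11.08 and 10.84 to 11.08 against 10.75 to 11.25. Which transcripts these Mlxipl probes read was not tested. A single array had 34131 to 38612 spots above background, and any pair of arrays correlated at 0.980 to 0.999. The members were dim in part, with 31 to 40 of the 44 genes detected on a given array. The median was 36 genes in total ChREBP-KO mice, 33.5 in their WT littermates, 35 in ChREBPβ-deficient mice and 34.5 in WT littermates of that line. Levels below are log2 intensities after quantile normalization, without background subtraction, of the brightest probe of each gene, and they do not compare 1 gene with another. The brightest probes of 10 of the 36 genes passed the filter through their detection in 6 or more mice of a group rather than on 26 or more of the 31 arrays, among them those of E2f8, Plk1, Ube2c, Mki67, Top2a and Prc1. A gene was called when its limma p, adjusted over all probes, was under 0.05.

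The promoters of these genes show the elements by which they are usually grouped. RefSeq windows on build GRCm38.p6, from 250 bases before to 50 after the start site, were matched for 34 of the 44 members (36 windows). On both strands, 4 motifs were searched: CHR (TTTGAA or TTCGAA), E2F (TTTCCCGC, TTTGGCGC, TTTCGCGC or TTTGCCGC), the CCAAT box (CCAAT) and the E-box (CACGTG) that forms part of the element bound by ChREBP. A CHR match stood in 17 members (50%) and in 21.7% of all 27025 genes with a window. CCAAT stood in 26 members (76.5%) and in 41.1% of all genes, and E2F in 7 members (20.6%) and in 2.6%. The E-box was found in 1 member, Tyms (2.94%), and in 8.09% of all genes. Matches of different motifs shared bases at 1 place. These counts describe letters in the windows and no binding was measured.

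The 150 bases before the start site are shown for 6 members that stand for the patterns below, with every motif match in capitals. They are Rrm2 (chr12:24708104-24708253, plus strand), which fell furthest, Mcm3 (chr1:20820313-20820462, minus strand) and Mcm6 (chr1:128359706-128359855, minus strand) of the replicative helicase, Tk1 (chr11:117826015-117826164, minus strand), which rose furthest, and the proliferation markers Mki67 (chr7:135716380-135716529, minus strand) and Top2a (chr11:99024190-99024339, minus strand).
Rrm2: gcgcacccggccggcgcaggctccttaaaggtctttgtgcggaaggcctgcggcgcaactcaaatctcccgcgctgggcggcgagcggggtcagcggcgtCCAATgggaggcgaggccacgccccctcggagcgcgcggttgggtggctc
Mcm3: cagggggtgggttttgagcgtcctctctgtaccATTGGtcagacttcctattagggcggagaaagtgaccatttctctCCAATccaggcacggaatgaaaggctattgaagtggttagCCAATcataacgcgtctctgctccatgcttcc
Mcm6: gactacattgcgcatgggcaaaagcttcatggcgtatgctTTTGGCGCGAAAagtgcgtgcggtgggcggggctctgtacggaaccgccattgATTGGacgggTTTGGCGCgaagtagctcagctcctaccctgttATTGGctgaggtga
Tk1: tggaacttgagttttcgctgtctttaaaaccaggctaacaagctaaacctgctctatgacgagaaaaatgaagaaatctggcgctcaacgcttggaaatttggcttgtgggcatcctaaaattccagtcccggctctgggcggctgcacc
Mki67: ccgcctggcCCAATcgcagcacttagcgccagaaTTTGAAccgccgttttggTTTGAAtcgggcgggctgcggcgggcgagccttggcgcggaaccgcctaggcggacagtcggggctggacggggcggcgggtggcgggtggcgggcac
Top2a: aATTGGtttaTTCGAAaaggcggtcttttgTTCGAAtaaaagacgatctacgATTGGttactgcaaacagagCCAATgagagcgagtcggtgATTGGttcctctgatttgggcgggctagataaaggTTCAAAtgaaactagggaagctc
Rrm2 had a single CCAAT box here and Tk1 no match, while Mki67 and Top2a paired CCAAT boxes with CHR matches. Mcm6 had E2F matches among its CCAAT boxes, and Mcm3 had CCAAT boxes only in this stretch. Among the members tested in total ChREBP-KO mice, CHR was found in 6 of 9 genes called higher by their brightest probe, 4 of 9 called lower and 4 of 11 that were not called. E2F was found in 0 of 9, 3 of 9 and 3 of 11. For CCAAT the counts were 6 of 9, 7 of 9 and 9 of 11. E2f8 and Prc1, whose probes opposed each other, each had a CHR and a CCAAT match and are counted here as higher and lower.

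The comparison of ChREBPβ-deficient mice with WT littermates asks whether loss of the short isoform alone moved these genes. None of the 36 genes was called in either direction by limma, and 0 reached an unadjusted p under 0.05. The exact Mann-Whitney test with Benjamini-Hochberg adjustment also called 0. Over all genes tested, 0% were called higher and 0.00417% lower. The median log2 difference over the members was 0.0050, beside -0.000666 over all probes, and 18 members lay on either side of 0. The members ranged from -0.36 for Ccne1, which encodes cyclin E1, to 0.17 for Ube2c, the ubiquitin-conjugating enzyme of the anaphase-promoting complex.

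The G1 and mitotic markers overlapped fully between these 2 groups. Mki67, the gene of the Ki-67 antigen, had a lowest, median and highest log2 intensity of 5.67, 6.19 and 6.74 in WT littermates and of 5.90, 6.19 and 6.82 in ChREBPβ-deficient mice, and differed by 0.09. Rrm2, the regulatory subunit of ribonucleotide reductase, gave 9.08, 10.27 and 10.66 against 9.53, 10.30 and 10.71, and differed by 0.12. For Ccne1 the values were 6.72, 7.07 and 8.32 against 6.37, 6.99 and 7.66. In Ccne1 the WT range was the wider. The small signs of Mki67 and Rrm2 each turned under 1 alternative, given with the other alternatives further on.

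**Figure D1:**
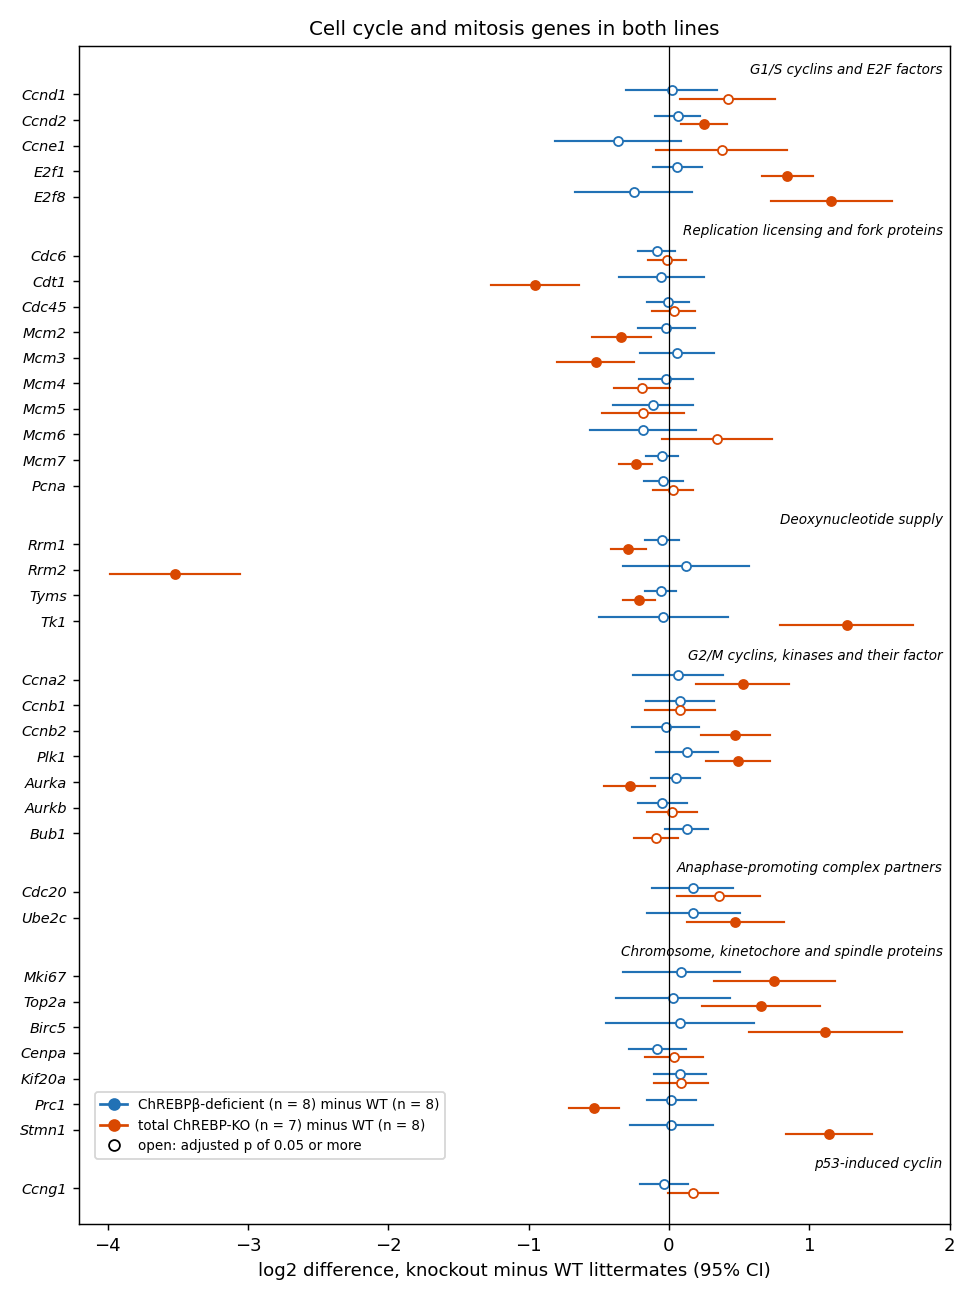
Log2 difference between knockout mice and WT littermates for the 36 members that passed the filter, with 95% confidence intervals, grouped by role. Blue points are the ChREBPβ line (8 against 8 mice) and orange points the total ChREBP line (7 against 8 mice), and filled points have an adjusted p under 0.05. All blue points are open, whereas the orange points spread from -3.52 for Rrm2 to 1.27 for Tk1.

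The comparison of total ChREBP-KO mice with WT littermates asks the same of the loss of both isoforms. Of the 36 members, each taken by its brightest probe, 12 were called higher, 9 lower and 15 were not called. These counts include E2f8 as higher and Prc1 as lower, although another probe of each was called the other way, so that no direction can be given for either gene. The E2F factor E2f1, the thymidine kinase Tk1, the cyclin genes Ccnd2, Ccna2 and Ccnb2 and mitotic genes such as Mki67 and Birc5 were higher. The cyclin genes Ccnd1, Ccne1, Ccnb1 and Ccng1 and the mitotic genes Aurkb, Bub1, Cdc20, Cenpa and Kif20a were not called. The ribonucleotide reductase subunits, the licensing factor Cdt1, 3 helicase subunits and the mitotic kinase gene Aurka were lower. The 12 called higher were 33.3% of the members, beside 14.4% of all genes tested, and the 9 called lower were 25%, beside 14.8%. The counts by role below stand beside the same shares. Of the 12, E2f8, Plk1, Ube2c, Mki67 and Top2a passed the filter only through their detection in a group. Their entry could thus depend on their level in the groups compared. A filter requiring all arrays left 7 members higher. It also removed members such as Mki67, detected on 23 arrays, so these 7 are not out of 36. The share of 33.3% is that of the main filter. The median difference over the members was 0.08 and that over all probes was 0.00825. Every total ChREBP-KO mouse lay above every WT littermate for 4 members (11.1%, beside 3.3% of all genes) and below for 4 (11.1%, beside 4.45%). An unadjusted p under 0.05 was reached by 23 members. In whole liver, fewer cells of a type and less RNA per cell cannot be told apart. All 21 called members kept their sign within both scan days. With slide as a fixed block, 7 rather than 12 members were called higher, and the calls of Ccnd2, Ccna2, Ube2c, Mki67, Top2a and, among the lower genes, Mcm3 were lost. The exact Mann-Whitney test with Benjamini-Hochberg adjustment called 9 higher and 6 lower, without Ccnb2, Ube2c, Mki67, Mcm2, Mcm3 and Aurka.

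Among the G1/S cyclins and E2F factors, 3 of 5 measured genes were called higher and 0 lower by their brightest probe, with E2f8 opposed by another probe. E2f1, an activator of S-phase genes, had a lowest, median and highest log2 intensity of 6.84, 7.11 and 7.21 in WT littermates and of 7.4998, 7.97 and 8.13 in total ChREBP-KO mice. The groups did not overlap, and the difference was 0.84 (95% confidence interval 0.66 to 1.02, adjusted p = 1.55e-08). For E2f8, an E2F repressor linked to polyploid hepatocytes, the brighter probe gave 5.97, 6.44 and 6.68 against 6.90, 7.60 and 8.31. This probe passed all scanner criteria in 7 of 7 knockout mice and 3 of 8 WT littermates. All knockout mice lay above the WT littermates, by 1.16 (0.73 to 1.59, adjusted p = 9.53e-05). Ccnd2, which encodes cyclin D2, gave 10.88, 11.08 and 11.22 against 11.14, 11.29 and 11.52. The groups overlapped at their edges, with a difference of 0.25 (0.08 to 0.41, adjusted p = 0.0206) that was not called without knockout replicate 1 (adjusted p = 0.0568). The dimmest Ccnd2 probe had a mean of 8.11 in WT littermates and 8.40 in total ChREBP-KO mice. The remaining probe had close means of 9.84 and 9.90, and its groups overlapped.

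Cyclin D1 (Ccnd1), the growth-factor sensor of G1, gave 10.14, 10.75 and 10.997 in WT littermates against 10.35, 11.13 and 11.63. Its difference of 0.42 missed the threshold (adjusted p = 0.0563), and it was called when any of 5 single mice was left out. Ccne1 gave 7.26, 7.58 and 7.96 against 7.54, 8.04 and 8.32, a difference of 0.38 that was not called (adjusted p = 0.233). It was called by limma when each line was fitted alone (adjusted p = 0.0358). Both Ccnd1 and Ccne1 overlapped between the groups. Ccng1, a cyclin gene induced by p53, gave 8.55, 8.96 and 9.21 against 8.86, 9.07 and 9.31, a difference of 0.17 (adjusted p = 0.147).

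Among 10 replication licensing and fork genes, 4 fell and 0 rose. Cdt1, which loads the helicase at origins, fell most. Its log2 intensity was 8.75, 9.36 and 9.67 in WT littermates and 7.87, 8.37 and 8.69 in total ChREBP-KO mice. No knockout mouse reached the WT range, and the difference was -0.95 (-1.27 to -0.64, adjusted p = 1.66e-05). Of the helicase subunits, Mcm3 gave 8.82, 9.17 and 9.48 against 8.11, 8.55 and 9.29. Part of the knockout range stood within the WT range, and Mcm3 fell by 0.52 on the log2 scale (adjusted p = 0.00361), with -0.52 to -0.56 over its 4 probes. Mcm2 gave 7.004, 7.20 and 7.40 against 6.58, 6.89 and 7.27, a difference of -0.34 (adjusted p = 0.0135). Mcm7 gave 10.62, 10.67 and 10.86 against 10.24, 10.52 and 10.67, a difference of -0.24 (adjusted p = 0.00226). Both groups of each gene overlapped. The dimmer Mcm7 probe gave 4.68 to 5.16 in WT littermates against 4.66 to 5.09 in total ChREBP-KO mice.

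The other subunits did not share a direction. Mcm6 gave 9.05, 9.40 and 9.87 against 9.31, 9.70 and 10.53 and differed by 0.34 (adjusted p = 0.191), while Mcm4 differed by -0.19 (adjusted p = 0.148) and Mcm5 by -0.18 (adjusted p = 0.37). Pcna, the sliding clamp of DNA polymerase, gave 11.22, 11.43 and 11.58 against 11.28, 11.45 and 11.57. The ranges of Pcna nearly coincided, with a difference of 0.03 (-0.11 to 0.17). The origin factors Cdc6 and Cdc45 differed by -0.01 and 0.03.

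The 4 genes of deoxynucleotide supply were all called, 3 lower and 1 higher. Rrm2, read at chr12:25398824-25398883 of build mm9, fell more than any other member. Its log2 intensity was 10.14, 10.94 and 11.69 in WT littermates and 7.03, 7.37 and 7.75 in total ChREBP-KO mice. The gap between the groups exceeded the range within either, and all mice of the ChREBPβ line, at 9.08 to 10.71, also lay above every total ChREBP-KO mouse. The difference was -3.52 (-3.98 to -3.06, adjusted p = 1.09e-12), which is 11.5-fold lower. Rrm1, the catalytic subunit of the same reductase, gave 8.58, 8.69 and 8.77 against 8.16, 8.44 and 8.56. It fell by 0.29 on the log2 scale without overlap (adjusted p = 0.000571).

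Tyms, the thymidylate synthase, gave 10.21, 10.34 and 10.42 against 9.90, 10.14 and 10.20. The groups stood just apart, with a difference of -0.21 (adjusted p = 0.00409), and the 2 other Tyms probes differed by -0.25 and -0.10 without a call. Tk1, the cytosolic thymidine kinase of the salvage route, moved the other way. It gave 8.87, 9.22 and 10.04 in WT littermates against 10.21, 10.57 and 10.94 in total ChREBP-KO mice. All knockout mice lay above all WT littermates for each of its 3 probes, with differences of 1.27, 1.25 and 1.02 (adjusted p = 9.99e-05 for the brightest).

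**Figure D2:**
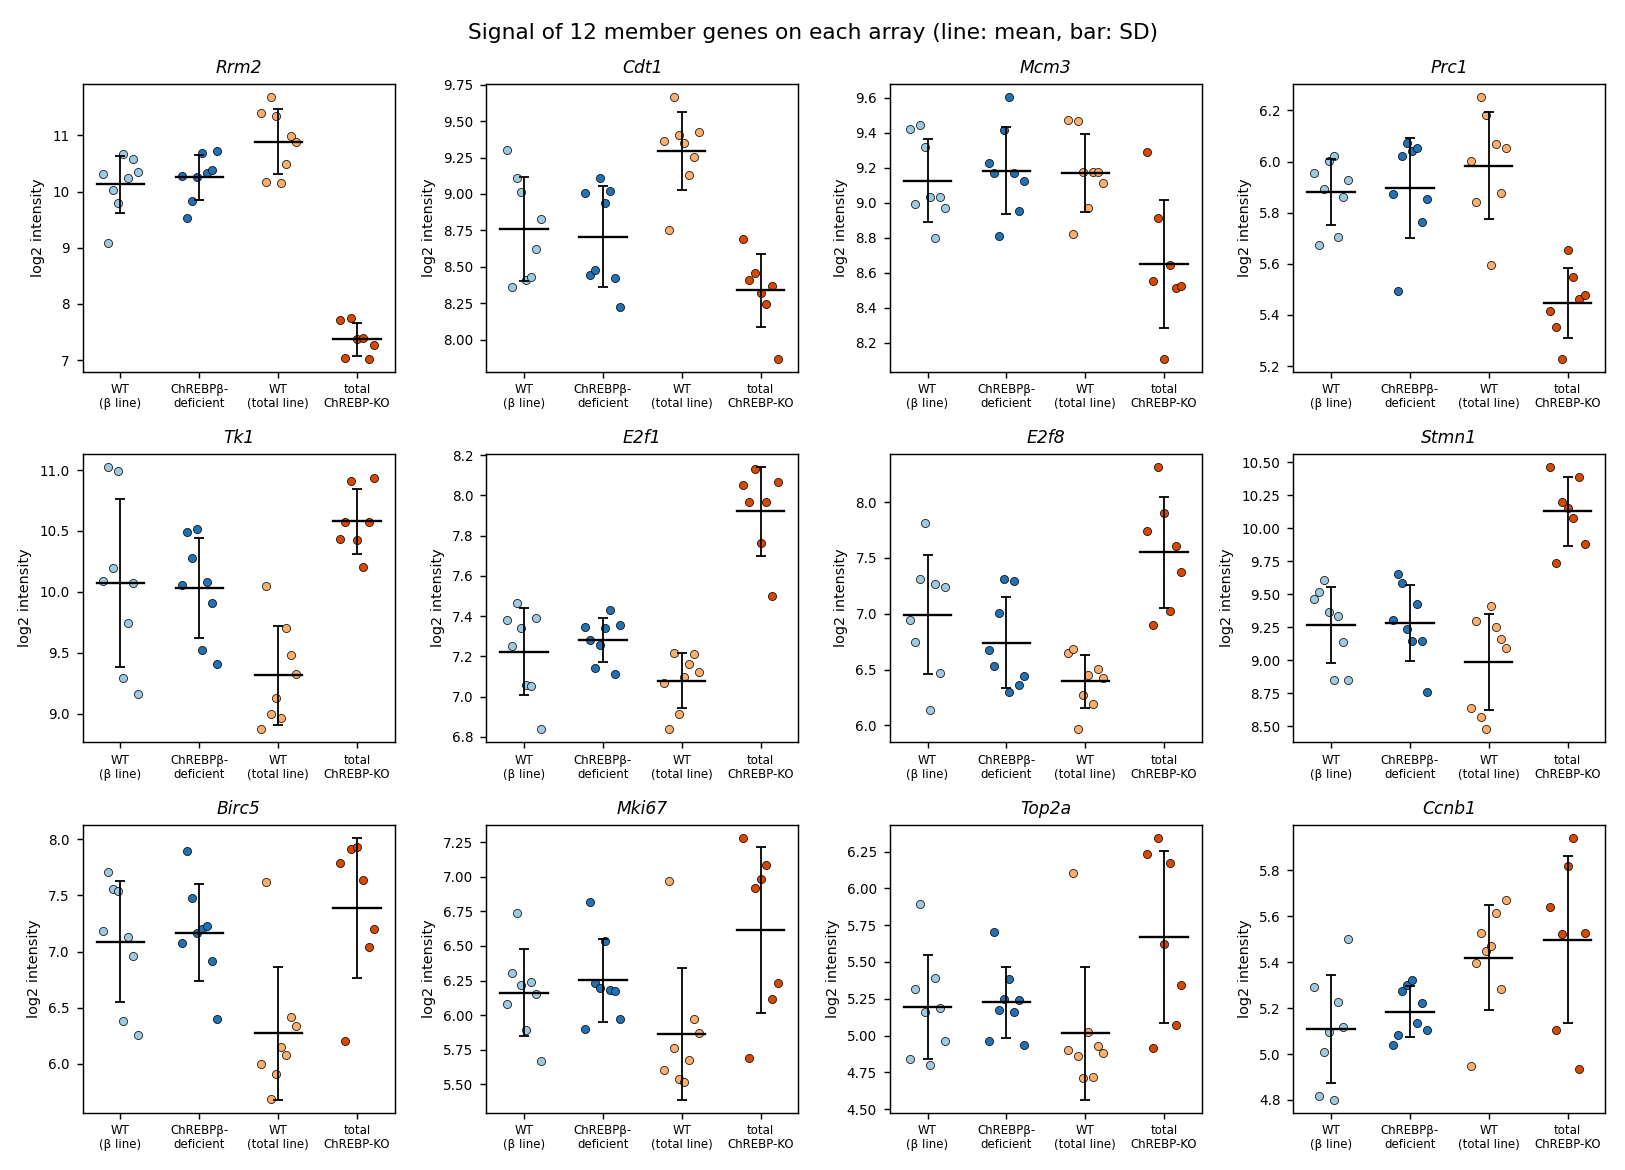
Log2 intensity of 12 members (brightest probe) on each of the 31 arrays, by group, with the mean as a line and the SD as a bar. Rrm2 and Cdt1 are lower and Tk1, E2f1, E2f8 and Stmn1 higher in all total ChREBP-KO mice than in their WT littermates, whereas Birc5, Mki67 and Top2a overlap where 1 WT mouse is high and 1 knockout mouse is low.

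Among 7 measured genes of G2/M cyclins and kinases, 3 rose and 1 fell. Ccna2, which encodes cyclin A2 of S and G2 phase, gave 5.32, 5.71 and 6.55 against 5.74, 6.43 and 6.78. WT replicate 2 stood among the highest knockout mice, and the difference was 0.53 (adjusted p = 0.0139). Ccnb2, a mitotic B cyclin, gave 6.56, 7.03 and 7.45 against 7.26, 7.57 and 7.80, a difference of 0.47 (adjusted p = 0.00331). Plk1, the polo kinase of mitotic entry, gave 5.26, 5.45 and 6.06 against 5.72, 5.99 and 6.31, a difference of 0.49 (adjusted p = 0.00112). Both overlapped in part. Aurka, a centrosome kinase, gave 7.09, 7.31 and 7.36 against 6.71, 6.91 and 7.34 and fell by 0.28 on the log2 scale (adjusted p = 0.0169).

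Other mitotic kinases and cyclins lay near their WT values. Ccnb1, the main mitotic cyclin, gave 4.95, 5.46 and 5.67 against 4.94, 5.53 and 5.94 and differed by 0.08 (adjusted p = 0.684). Aurkb, of the chromosomal passenger complex, differed by 0.02 and Bub1, a spindle checkpoint kinase, by -0.09. These 3 genes were dim, with group medians of 4.55 to 5.53, and the Bub1 probe was detected in 1 of 8 WT littermates and 0 of 7 knockout mice. Ube2c gave 5.35, 5.57 and 6.34 against 5.50, 6.27 and 6.69, a difference of 0.47 (adjusted p = 0.0331). The call of Ube2c was lost when any of 9 single mice was left out, with an adjusted p of at most 0.0949. Cdc20, an activator of that complex, differed by 0.35 (adjusted p = 0.068), and its dimmer probe was called higher at 0.29 (adjusted p = 0.0164).

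Of 7 measured chromosome, kinetochore and spindle genes, 4 rose and 1, Prc1, was called lower by its brighter probe and higher by its dimmer one. Stmn1, which destabilizes microtubules, gave 8.48, 9.13 and 9.41 in WT littermates against 9.74, 10.16 and 10.46 in total ChREBP-KO mice. The groups did not overlap, and the difference was 1.14 (0.83 to 1.45, adjusted p = 7.61e-07), and it was 1.05 for another probe, whose groups overlapped. Birc5, the survivin subunit of the passenger complex, gave 5.68, 6.11 and 7.62 against 6.21, 7.64 and 7.93, a difference of 1.11 (adjusted p = 0.00196). Mki67 gave 5.51, 5.72 and 6.97 against 5.69, 6.92 and 7.28, a difference of 0.75 (adjusted p = 0.0073). Top2a, the topoisomerase that untangles sister chromatids, gave 4.71, 4.89 and 6.10 against 4.92, 5.62 and 6.34, a difference of 0.66 (adjusted p = 0.016). For each of these 3 genes WT replicate 2 stood high and knockout replicate 2 was the lowest of its group. Knockout replicates 7 and 8 came next, at 6.12 and 6.23 for Mki67, 5.07 and 5.34 for Top2a and 7.04 and 7.20 for Birc5. Top2a was well above background in 7 of 8 WT littermates.

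The centromere histone gene Cenpa and the cytokinesis kinesin gene Kif20a differed by 0.04 and 0.09 and were not called. The size of the differences of the dim mitotic members moved with the signal used. Median local background ranged from 15 to 33 intensity units over the arrays. The value of 33 was that of total ChREBP-KO replicate 4, and the other arrays had 15 to 21. This mouse was the highest of its group in 4 of the 12 members called higher. The part of its background in these values was not tested. With the processed signal, which is background-subtracted and was scaled to the 75th percentile, the differences were 1.33 for Top2a, 1.01 for Mki67 and 0.78 for Plk1. With normexp background correction they were 0.36, 0.50 and 0.28. The call of Top2a was lost when each line was fitted alone.

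In 2 genes the probes went opposite ways, and no direction can be given for the gene. The brighter Prc1 probe, for the protein that bundles midzone microtubules, lies at chr7:87449197-87449256 of build mm9. It gave 5.59, 6.03 and 6.25 in WT littermates against 5.23, 5.46 and 5.65 in total ChREBP-KO mice and fell by 0.54 on the log2 scale (adjusted p = 2.26e-05). The dimmer one, at chr7:87461048-87461107, gave 4.76, 4.95 and 6.23 against 5.11, 5.65 and 6.46, a difference of 0.72 (adjusted p = 0.00519). Its values followed the pattern of Mki67 and Top2a, with the same WT mouse high and the same knockout mouse lowest. The brighter E2f8 probe, at chr7:56121860-56121919, is the one called higher above. The dimmer one, at chr7:56130466-56130525, gave 4.999, 5.90 and 6.09 against 5.05, 5.29 and 5.63, a difference of -0.47 (adjusted p = 0.00521). Which transcripts these probes read was not tested.

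**Figure D3:**
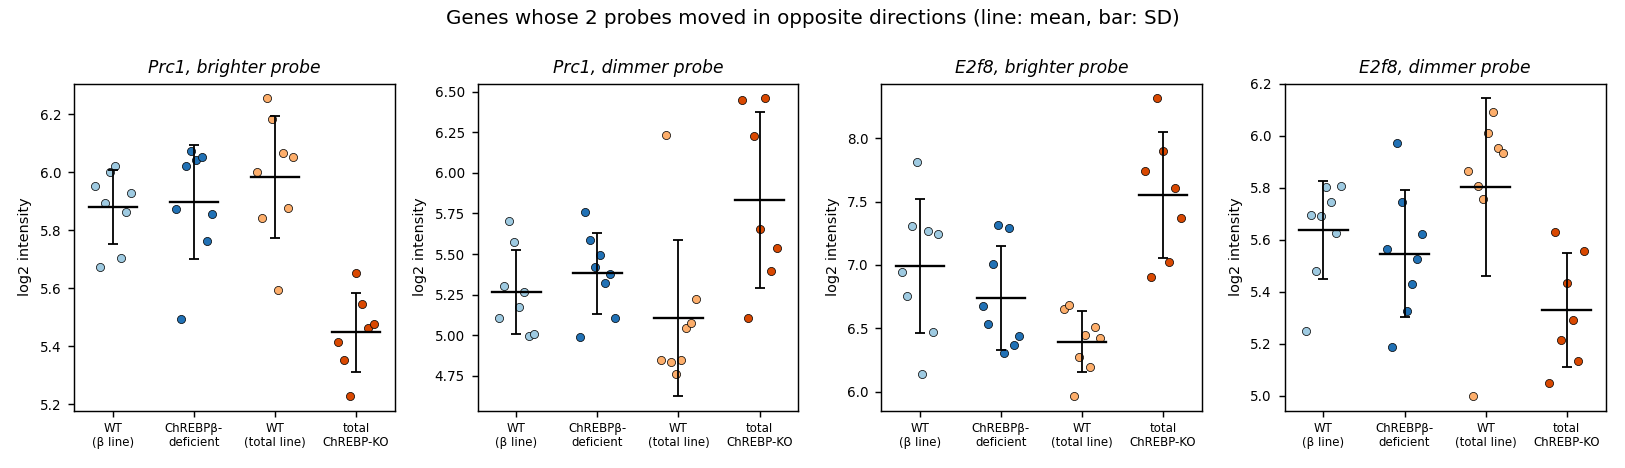
Log2 intensity on each array for both probes of Prc1 and of E2f8, by group, with the mean as a line and the SD as a bar. In total ChREBP-KO mice the brighter Prc1 probe is lower and the dimmer one higher than in WT littermates, and for E2f8 the order is the reverse.

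The remaining 8 members did not pass the filter and were not compared. Ccne2 was detected on 0 of 31 arrays and Foxm1, the transcription factor of the G2/M program, on at most 6 for any of its 3 probes. The kinase gene Cdk1 was detected on 11 arrays, of which 5 were among the 7 total ChREBP-KO mice and 2 among their 8 WT littermates. Nusap1, of the spindle, was also detected on 11, with 5 and 3 in those groups. Detection was on 5 arrays each for the checkpoint kinase Bub1b, the motor Kif11 and the spindle factor Tpx2, and on 18 for the kinetochore motor Cenpe.

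The mice of a group did not contribute alike. Of the 12 members called higher, WT replicate 2 of the total ChREBP line was the highest of its 8 littermates in 9. Among the total ChREBP-KO mice, replicate 2 was the lowest in 6 and replicate 1 the highest in 6. The mean of the chromosome, kinetochore and spindle genes, each centered on its own median over the 31 arrays, was 0.35 in that WT mouse and -0.44 to -0.14 in the other 7. In total ChREBP-KO mice it was -0.24 in replicate 2 and 0.04 to 0.57 in the others. For Rrm2 and Tk1 no mouse of either group reached the other group. The mean of the G1/S genes was 0.39 to 0.81 in total ChREBP-KO mice against -0.18 to 0.07 in WT littermates. It includes E2f8, and the spindle mean includes Prc1, each by its brighter probe, although their probes opposed each other. Without WT replicate 2 the members counted 13 higher and 9 lower, and without knockout replicate 2 they counted 12 and 9.

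**Figure D4:**
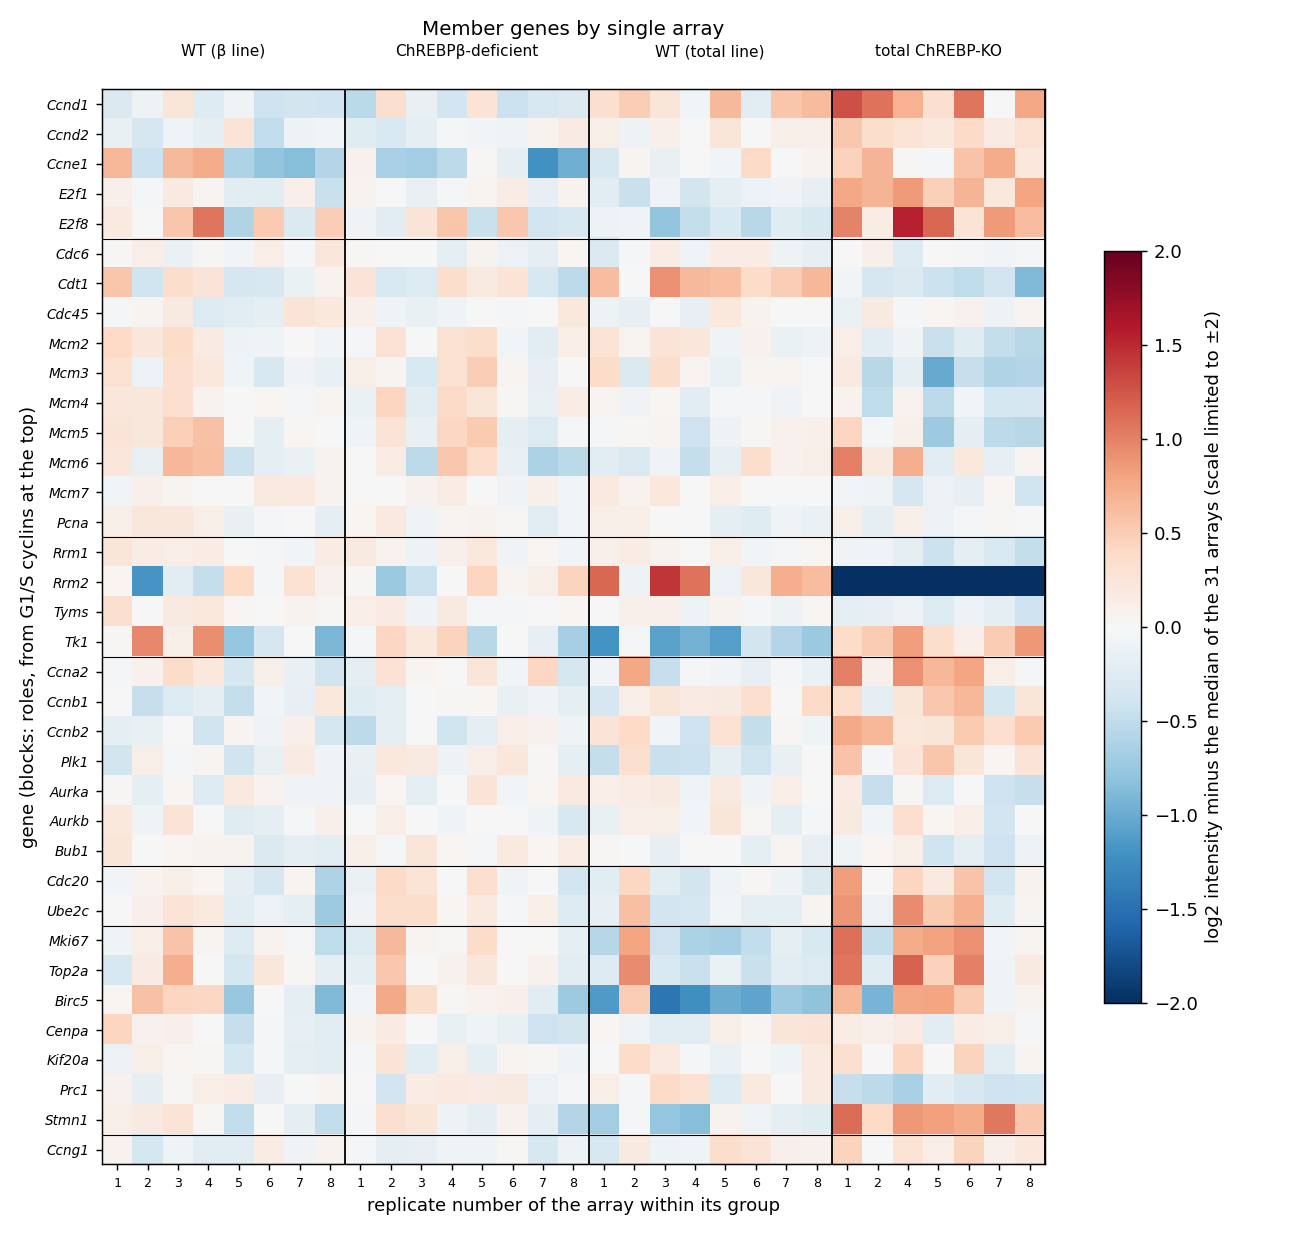
Log2 intensity of the 36 members on each array, minus the median of the 31 arrays for that gene (color, limited to ±2), with arrays in columns by group and replicate number and genes in rows by role. Rrm2 is dark blue in all 7 total ChREBP-KO mice, and the block of Mki67, Top2a and Birc5 is red in WT replicate 2 of that line and blue in knockout replicate 2.

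The difference between both effects was tested directly, by taking the knockout effect of the ChREBPβ line away from that of the total ChREBP line. It uses the same mice as both comparisons above, and it passed for 9 of the 36 members. It was positive for E2f1 (0.78), E2f8 (1.41, brighter probe), Tk1 (1.305), Ccnb2 (0.50) and Stmn1 (1.13), which is 13.9% of members, beside 7.09% of all genes. It was negative for Cdt1 (-0.90), Mcm3 (-0.58), Rrm2 (-3.64) and Prc1 (-0.55, brighter probe), which is 11.1%, beside 8.25%. The adjusted p ranged from 2.48e-09 for Rrm2 to 0.0417 for Ccnb2. For Mki67 (0.66), Top2a (0.62) and Birc5 (1.04) it did not pass with all mice. Without WT replicate 2 of the total ChREBP line 9 members were called positive rather than 5. The members gained are not named here, and that mouse had been picked out by its high values in these same data. The calls of Ccnb2 and Mcm3 were lost without any of 17 and any of 7 single mice.

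The WT littermates of the 2 lines also differed from each other, in 6 members. In the total ChREBP line, Ccnd1 (0.54), Cdt1 (0.53) and Rrm2 (0.76) were higher, beside 7.79% of all genes. E2f8 (-0.60, brighter probe), Tk1 (-0.76) and Birc5 (-0.82) were lower, beside 9.36%. Each direction held 8.33% of the members. Line, litter and handling of these WT mice cannot be told apart. Markers of other cells also differed between them. The summed log2 signal of the erythroid markers was 15.65 to 16.74 in WT littermates of the ChREBPβ line and 16.96 to 17.47 in those of the total ChREBP line, with 2 of 4 markers called higher and 1 lower. Of 4 neutrophil markers 2 were called higher, with sums of 9.51 to 11.45 against 10.39 to 11.96, of 5 B cell markers 1 was lower, and of 3 exocrine pancreas markers 1 was higher. Their part in the member levels was not tested. The same WT mice are the reference of the knockout comparisons, so the levels of all 4 groups are given side by side. Median Tk1 was 10.08 and 10.07 in WT and ChREBPβ-deficient mice, 9.22 in WT littermates of the total ChREBP line and 10.57 in total ChREBP-KO mice. Median Birc5 was 7.16, 7.18, 6.11 and 7.64 in the same order, and median Cdt1 was 8.73, 8.71, 9.36 and 8.37. Median E2f1, at 7.29, 7.31, 7.11 and 7.97, and median Stmn1, at 9.35, 9.27, 9.13 and 10.16, were highest in total ChREBP-KO mice. With slide as a fixed block, 0 rather than 3 members were higher and 1 rather than 3 lower between the WT groups. The lower calls fell to 0 without WT replicate 4 of the ChREBPβ line and to 1 without any of WT replicates 2 and 3 of that line or 3 and 4 of the total ChREBP line.

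Beyond the members, 148 further genes of the cell cycle were listed, of which 127 passed the filter. In ChREBPβ-deficient mice 0 of them were called. In total ChREBP-KO mice 24 rose (18.9%, beside 14.4% of all genes) and 23 fell (18.1%, beside 14.8%), with a median of 0.0077. The WT littermates of the total ChREBP line also differed from those of the ChREBPβ line. There 16 genes were higher (12.6%, beside 7.79% of all genes) and 17 lower (13.4%, beside 9.36%), with differences of -0.84 to 2.72. Of the 13 p53 and growth-arrest genes 4 were higher and 2 lower, and of the 10 inhibitors and pocket proteins 3 and 3. The WT reference of the differences below thus varied between the lines. Of 10 inhibitors of cyclin-dependent kinases and pocket proteins, 2 rose and 1 fell in total ChREBP-KO mice, beside the same 14.4% and 14.8% of all genes. The inhibitor gene Cdkn1c rose by 0.82 (adjusted p = 0.0025) and the pocket protein gene Rbl1 differed by -0.48 (adjusted p = 0.000639). Cdkn1a, the p21 gene, was named after its values were seen. It differed by -1.44 and just missed the threshold (adjusted p = 0.0519), with 8.97 to 10.35 in WT littermates and 7.49 to 9.29 in total ChREBP-KO mice.

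Of 13 p53 and growth-arrest genes, 3 rose and 2 fell, beside 14.4% and 14.8% of all genes. Gadd45g, a stress gene that restrains growth, gave 13.27 to 15.28 in WT littermates against 10.003 to 13.68, a difference of -3.11 (adjusted p = 6.29e-05). The polo-like kinase gene Plk3 rose by 1.31 (adjusted p = 0.000316), and Trp53 itself differed by -0.47 (adjusted p = 0.0151). Of 21 G1 kinases, cyclins and E2F or DREAM factors, 3 rose and 3 fell, which is near those shares of all genes. E2f2 gave 9.15 to 9.91 in WT littermates against 8.005 to 8.45 and differed by -1.22 (adjusted p = 3.12e-06), opposite to E2f1 and to E2f3 (0.46). Of the E2F partners, Tfdp1 differed by -0.43 and Tfdp2 by 0.58.

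Of 40 other DNA replication genes, 12 fell and 6 rose, beside 14.8% and 14.4% of all genes. The primase gene Prim1 (-0.67) and the polymerase delta subunit gene Pold3 (-0.39) were among those that fell. Mcm10 (0.68), a helicase partner, rose, but was not called without WT replicate 4 (adjusted p = 0.0505). Of 43 other mitosis and cytokinesis genes, 10 rose and 5 fell, beside 14.4% and 14.8% of all genes. Hmmr, for a spindle-associated hyaluronan receptor, gave 8.32 to 10.82 in WT littermates against 7.77 to 8.13, a difference of -1.84 (adjusted p = 4.14e-06). Ccnf, for the F-box cyclin that targets the Rrm2 protein for degradation, gave 12.999 to 13.53 against 11.03 to 11.75, a difference of -1.82 (adjusted p = 1.06e-08). The kinetochore genes Spc24 and Spc25, of the Ndc80 complex, rose by 1.31 and 0.84.

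Markers of other liver cells were set beside these results. Between total ChREBP-KO mice and WT littermates, limma called 0 of 9 Kupffer cell markers, 0 of 5 T cell markers, 0 of 4 neutrophil markers, 0 of 5 sinusoidal endothelial markers and 0 of 4 adipocyte markers. Called higher were 1 of 5 B cell markers (Jchain, 1.70), 1 of 4 erythroid markers (Alas2, 0.34), 3 of 6 stellate cell markers (Reln 0.80, Colec11 0.50 and Dcn 0.40), 1 of 5 cholangiocyte markers (Epcam, 0.97) and 2 of 7 hepatocyte markers (Cps1 and Ttr). Of 3 exocrine pancreas markers, Cel and Ctrb1 were lower. The summed log2 signal of the stellate cell markers was 14.11 to 14.60 in WT littermates and 14.47 to 15.26 in total ChREBP-KO mice. That of the T cell markers was 13.84 to 14.32 against 13.84 to 14.61. For cholangiocyte markers it was 11.50 to 12.52 against 11.68 to 13.56, and for B cell markers 8.496 to 9.51 against 8.44 to 10.9998. The part of these cells in the levels of the cell cycle genes was not tested.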

How the data were processed

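Liver RNA of 31 mice was hybridized to SurePrint G3 arrays with Cy3 labeling. The authors deposited raw scanner intensity files (Agilent Feature Extraction 10.10.1.1). They also deposited a log2 table, made by weighting and filtering spots, quantile normalization and a median over repeated probes. Here the median signal intensities were put on the log2 scale. A spot had to be found, significant and well above background in 26 or more mice, or in 6 of any group, to be kept (65.3% of 59305 non-control spots), quantile normalized and averaged by median over spots of a probe. The result differed from the deposited log2 table by -0.027 to 0.030 (1st to 99th percentile). No background was subtracted. The differences of the dim members Top2a, Mki67 and Plk1 were larger with the processed signal and smaller with normexp correction. No member spot was saturated (0), and outlier-marked spots (0.112%) were kept. Probe positions are those of build mm9.

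All 4 groups entered 1 model in limma 3.58.1 under R 4.3.3 (lmFit, contrasts.fit, eBayes), and p-values were adjusted by Benjamini-Hochberg over 36059 probes. Each gene is given by its probe with the highest mean. Probes called in the opposite direction are named, and further probes are given for some genes only. Promoter windows were searched with Python 3.11.15, and figures were drawn with matplotlib 3.10.9. All 44 members could be named, with group values for the called ones and 15 set genes, and from each further list up to 6 called genes with the largest difference. The members and lists were chosen with earlier results of these data known. The programs were tested on simulated data. Replicates were separate mice by their labels, with 7 or 8 arrays a group limiting the precision. Alternatives were other signals, scalings, filters, blocks and tests, the deposited values, and each array left out. Only liver arrays were used here.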

Additional observations from a re-analysis of the deposited data

Results flagged for a closer look

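Each mouse was set against its own group for 36 genes in the 4 groups (144 sets of 7 or 8 mice), and 8 values on 3 arrays lay apart by Dixon's 95% criterion, where chance alone marks about 1 set in 20. Of these, 5 belonged to WT replicate 2 of the total ChREBP line, which stood high for Ccna2 (6.554, nearest littermate 5.755), Ube2c (6.343, nearest 5.801), Mki67 (6.968, nearest 5.975), Top2a (6.102, nearest 5.024) and Birc5 (7.621, nearest 6.414). WT replicate 4 of the same line stood low for Mcm4 (8.639, nearest 8.79) and Mcm5 (6.497, nearest 6.799). Total ChREBP-KO replicate 4 stood low for Cdc6 (6.359, nearest 6.565).

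By the limma test of the difference itself, the effect in total ChREBP-KO mice and that in ChREBPβ-deficient mice differed for 9 members, each taken by its brightest probe. These were E2f1 (0.7807), E2f8 (1.408), Tk1 (1.305), Ccnb2 (0.4976) and Stmn1 (1.125), and in the other direction Cdt1 (-0.9005), Mcm3 (-0.5778), Rrm2 (-3.643) and Prc1 (-0.5528).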

How the results depend on the processing

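Over 14 alternatives the differences of single genes kept their direction and side of the threshold in 1000 instances, lost a call in 67, gained one in 5 and changed sign in 4. The sign changes were those of Pcna with the processed signal (-0.0029), Cdc6 (0.067) and Bub1 (0.011) after scaling arrays to their 75th percentile instead of quantiles, and Mki67 in ChREBPβ-deficient mice with slide as a fixed block (-0.097). In total ChREBP-KO mice, a filter requiring all arrays, which also left fewer genes to test, left 7 members higher. Slide as a fixed block also left 7. A fold of at least 1.5 in addition left 7 higher and 2 lower, and of the further cell cycle genes 7 higher and 6 lower. Those further genes counted 14 higher under the filter requiring all arrays and 15 higher with the exact Mann-Whitney test. For the difference between both effects, that filter left 3 positive and the fold threshold 2 negative. For the WT groups, slide as a fixed block left 0 higher and 1 lower, and the fold threshold 1 higher.

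With each mouse left out in turn, members counted 10 to 14 higher and 9 lower in total ChREBP-KO mice, 4 to 9 positive and 3 to 6 negative for the difference between both effects, and 3 to 4 higher and 0 to 3 lower between the WT groups. ChREBPβ-deficient mice kept counts of 0. The further genes counted 20 to 25 higher and 21 to 25 lower. Without single mice the sign turned for Cdc6 (-0.051 to 0.024), Aurkb (-0.025 to 0.095) and Rrm2 in ChREBPβ-deficient mice (-0.027 to 0.23). The Ccnd2 call was lost without total ChREBP-KO replicate 1 (adjusted p = 0.0568), and those of Myc and Cdkn1b without any of 14 and 9 mice.

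The labels do not say that a replicate number marks a shared litter or day, and the numbers were not taken to pair the mice, since not every pair correlated above 0.1 (6 of 8 in the ChREBPβ line and 2 of 7 in the total ChREBP line). Deviations of same-numbered mice correlated at -0.16 to 0.53 over 8 pairs of the ChREBPβ line and -0.21 to 0.24 over 7 pairs of the total ChREBP line, and 4 and 1 of them correlated best with their own number. A replicate block in limma gave each replicate number 1 level that both lines shared, so pairing within a line was not fitted. In total ChREBP-KO mice it gave 13 members higher, with Ccnd1 among them (0.44, adjusted p = 0.0463), and 9 lower. It gave 0 and 0 in ChREBPβ-deficient mice, and 5 and 5 for the difference between both effects. Scaling moved the median of all probes by under 0.1. The cause of these changes was not tested. Dim signal limits the precision of members near background.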
